A study of Homo sapiens with 4 samples.

Results

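The UGT1A and UGT2B clusters hold the genes of the UDP-glucuronosyltransferases, and 90 of the 160601 distinct H3K4me1 peaks called in LSD2-depleted HepG2 cells over control cells lay in them, 0.056% of the list. The members were the distinct peaks that overlapped by at least 1 bp a span of chromosome 2 from 234520001 to 234690000 (UGT1A, 16 peaks) or of chromosome 4 from 69400001 to 70550000 (UGT2B, 74 peaks), both on hg19. The spans were set for 10 genes, UGT1A1, UGT1A3, UGT1A4, UGT1A6 and UGT1A9 on chromosome 2 and UGT2B4, UGT2B7, UGT2B10, UGT2B15 and UGT2B17 on chromosome 4. All 90 peaks enter the counts below, since the list has no scores to filter on; the UGT1A peaks are given one by one and the UGT2B peaks by their range, with selected positions.

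HepG2 is a human liver tumour line, grown here in high-glucose medium with serum. The LSD2-KD cells had received siRNA against LSD2 (gene KDM1B), a demethylase of lysine 4 of histone H3, and the control cells an siRNA that the file header calls GL3. H3K4me1, the monomethylated form of this lysine, marks enhancers and the flanks of promoters. Each condition gave 1 H3K4me1 ChIP library and 1 input library, and the list sets the LSD2-KD ChIP library against the control ChIP library. The extent of LSD2 loss was not analysed here, and without replicates no test between conditions was possible.

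UDP-glucuronosyltransferases are enzymes of the endoplasmic reticulum that join glucuronic acid to bilirubin, bile acids, steroid hormones and drugs, which makes these compounds soluble enough to be excreted in bile or urine. In liver they are the main route of conjugation for many substrates. The UGT1A genes are nested: each has a promoter and a first exon of its own, and all splice to the same downstream exons. The UGT2B genes are separate genes that arose by duplication and lie side by side. Among the members, UGT1A1 conjugates bilirubin, UGT1A3 bile acids, UGT1A4 amines, UGT1A6 small phenols and UGT1A9 bulkier phenols such as propofol. UGT2B4 acts on bile acids, UGT2B7 on morphine and steroids, UGT2B10 on amines such as nicotine, and UGT2B15 and UGT2B17 on androgens.

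The promoters show where duplicated members still resemble each other and where each has letters of its own. RefSeq promoters (GRCh38.p14) were at hand for 8 of the 10 members, all but UGT2B4 and UGT2B17. The 250 bases before the start are shown for 6 members, 5′ to 3′ on the strand of the gene, with matches to GTTAAT, a half-site of the liver factor HNF1, in capitals on either strand. Those of UGT1A1, UGT1A3 and UGT1A4 lie on chromosome 2 and those of UGT2B7, UGT2B10 and UGT2B15 on chromosome 4.
UGT1A1: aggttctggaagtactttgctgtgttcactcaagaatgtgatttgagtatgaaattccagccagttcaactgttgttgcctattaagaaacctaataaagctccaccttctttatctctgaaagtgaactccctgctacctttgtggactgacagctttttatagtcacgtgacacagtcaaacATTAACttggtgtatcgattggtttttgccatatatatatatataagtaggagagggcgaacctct
UGT1A3: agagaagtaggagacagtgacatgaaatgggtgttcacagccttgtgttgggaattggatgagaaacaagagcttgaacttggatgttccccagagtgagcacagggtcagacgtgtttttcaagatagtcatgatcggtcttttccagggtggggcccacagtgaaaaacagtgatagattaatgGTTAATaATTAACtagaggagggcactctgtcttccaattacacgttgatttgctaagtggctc
UGT1A4: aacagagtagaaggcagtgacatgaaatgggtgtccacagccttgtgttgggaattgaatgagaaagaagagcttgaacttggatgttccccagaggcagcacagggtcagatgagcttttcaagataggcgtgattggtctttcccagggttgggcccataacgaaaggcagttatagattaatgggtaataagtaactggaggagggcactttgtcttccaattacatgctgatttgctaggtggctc
UGT2B7: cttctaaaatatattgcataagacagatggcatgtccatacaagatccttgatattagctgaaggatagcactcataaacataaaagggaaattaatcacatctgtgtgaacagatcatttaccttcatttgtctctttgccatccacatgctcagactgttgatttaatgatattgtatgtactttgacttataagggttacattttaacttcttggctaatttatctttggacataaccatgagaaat
UGT2B10: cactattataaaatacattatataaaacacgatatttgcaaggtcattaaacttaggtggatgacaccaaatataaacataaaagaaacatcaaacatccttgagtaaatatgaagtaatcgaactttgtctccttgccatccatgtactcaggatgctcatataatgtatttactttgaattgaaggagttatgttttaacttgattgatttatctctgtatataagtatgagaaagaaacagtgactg
UGT2B15: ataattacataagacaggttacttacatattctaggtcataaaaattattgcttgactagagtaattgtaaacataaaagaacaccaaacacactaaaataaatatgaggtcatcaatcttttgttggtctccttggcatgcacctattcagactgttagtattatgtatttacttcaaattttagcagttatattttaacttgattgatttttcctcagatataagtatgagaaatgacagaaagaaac

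Of 119 pairs of promoters in the UGT1A, UGT2B and UGT2A genes, 12 aligned over at least 200 bases and 7 of these were identical at 80% or more of the aligned bases. Over the 249 bases aligned, UGT1A4 and UGT1A3 shared 220, an identity of 88.4%, and UGT1A5, which lies beside UGT1A4, shared 90.8% with UGT1A4 and 90.4% with UGT1A3. UGT2B10 and UGT2B11 shared 93.1%, the highest value among the 12 pairs. UGT2B15 shared 79.4% with UGT2B10 and 68.0% with UGT2B7. The promoters of the other 107 pairs did not align over that length. How well reads can be placed in these genes was not analysed here.

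The HNF1 half-site GTTAAT, searched on both strands, occurred in the upstream bases of 3 of the 8 members, UGT1A1, UGT1A3 and UGT1A6 (the second of its 2 starts in the table), against 6.23% of 35116 promoter entries. In UGT1A3 2 half-sites form the full palindrome GTTAATNATTAAC, which begins 64 bases before the start and was found in 2 of the 35116 entries (0.0057%). UGT1A1 has its half-site 66 bases before the start. The letters GCGTG, the core bound by the dioxin receptor AHR with ARNT, occurred in 3 of the 8 members, UGT1A4, UGT1A6 and UGT1A9. This is close to their share of 32.2% among all promoter entries. For each motif the members were counted by gene, with both starts of UGT1A6 searched, and the whole set by entry. TATAAA occurred in 2 of the 8 members, UGT1A1 and UGT2B10, against 10.7% of promoter entries. In UGT1A1 it lay on the minus strand, as TTTATA, 92 bases before the start. In UGT2B10 it lay 244, 230 and 179 bases before the start. GCGTG and TATAAA were also searched on both strands. These matches describe letters, and peaks on hg19 were not set against promoters on GRCh38.p14.

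Both clusters carried somewhat more peaks per Mb than the rest of their chromosomes, by less than counting error. UGT1A held 94.1 peaks per Mb (95% Poisson interval 53.8 to 153) and the rest of chromosome 2 held 76.4 (75.3 to 77.5), a ratio of 1.23 (exact 95% interval 0.704 to 2.0). UGT2B held 64.3 peaks per Mb (50.5 to 80.8) and the rest of chromosome 4 held 53.7 (52.6 to 54.7), a ratio of 1.2 (0.94 to 1.51). Both ratios were above 1 and both intervals include 1. UGT1A was 1.46 times as dense as UGT2B (0.795 to 2.53), so these 2 clusters did not differ beyond counting error. Every interval here reflects counting error alone, as if each peak were independent of the next.

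**Figure D1:**
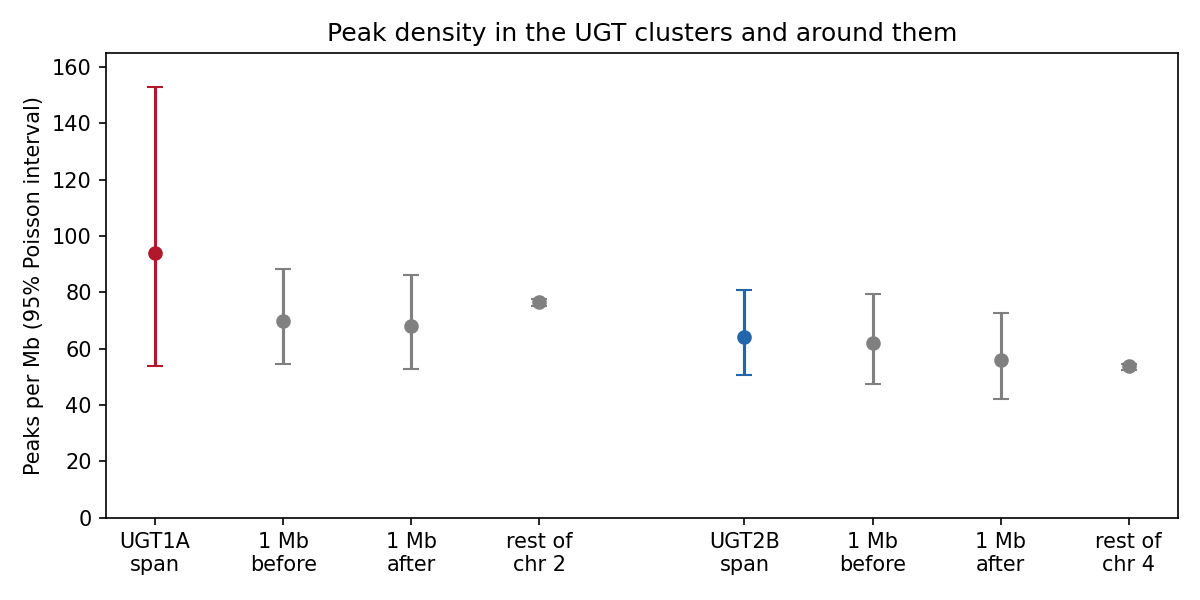
Peaks per Mb (y axis, 95% Poisson intervals as bars) in each UGT span, in the 1 Mb before and after it and in the rest of its chromosome (x axis). UGT1A, at 94.1, has an interval that reaches from 53.8 to 153 and takes in the values of all 3 comparison regions, and UGT2B, at 64.3, lies close to the 62.0 and 56.0 of its flanks.

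The 1 Mb before UGT1A held 70 peaks and the 1 Mb after it 68, which put UGT1A at 1.36 times the density of its flanks (exact 95% interval 0.758 to 2.3). For UGT2B the flanks held 62 and 56 peaks, and the ratio was 1.09 (0.804 to 1.47). Both intervals include 1. Covered bases were 3.4% of the UGT1A span and 2.72% of the rest of chromosome 2, and 2.17% of the UGT2B span and 1.73% of the rest of chromosome 4. In windows of 10 kb, 9 of 17 in UGT1A held the midpoint of a peak (52.9%, 95% Wilson interval 31.0 to 73.8%) and 54 of 115 in UGT2B (47.0%, 38.1 to 56.0%), against 40.4% of all 285990 windows of the assayed chromosomes. That share of 40.4% lies inside both intervals.

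Windows of the same length as each cluster placed them in the upper part of the range. UGT1A, with 16 peaks in 170 kb, stood at the upper quartile of 1403 other windows of chromosome 2, whose median was 13 peaks and whose quartiles were 10 and 16. As many peaks or more were found in 27.3% of the windows of chromosome 2 and in 13.1% of 16662 windows of all chromosomes. UGT2B, with 74 peaks in 1150 kb, was above the upper quartile of 72 on chromosome 4, where the median was 57.5 over 164 windows and 22.6% held as many. Over all chromosomes 34.4% of 2540 windows held as many as UGT2B. Windows without a peak were left out. The rest of chromosome 2 held 76.4 peaks per Mb and the rest of chromosome 4 held 53.7, so the same count stands higher on chromosome 4 than on chromosome 2. Copy number was not analysed here.

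**Figure D2:**
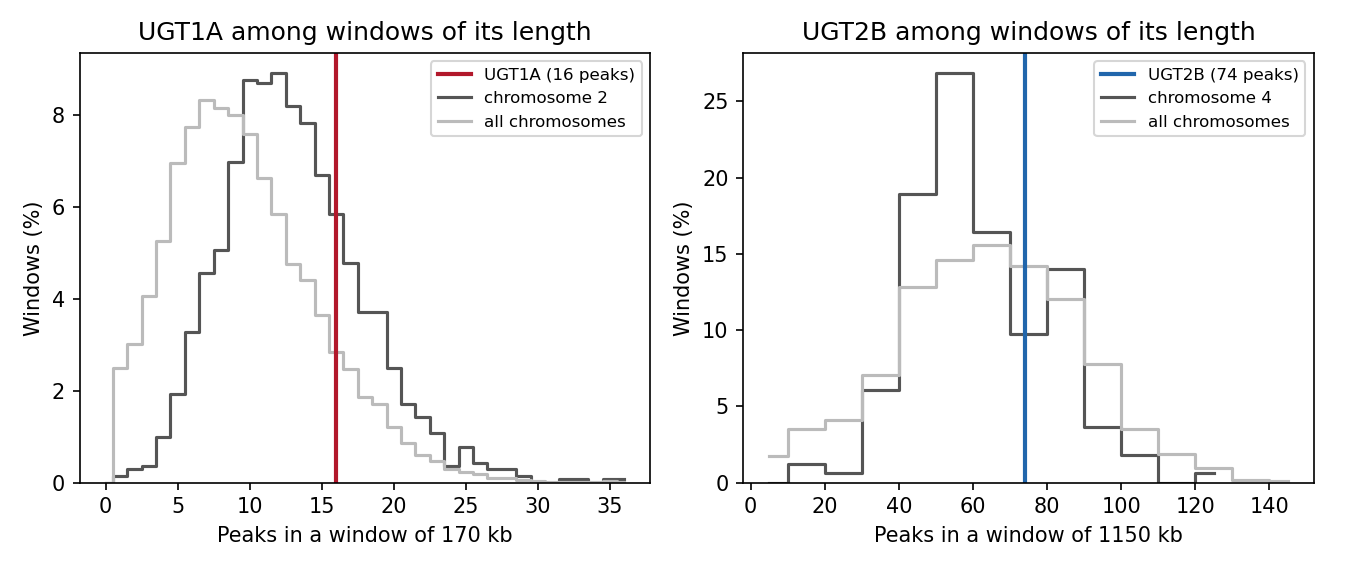
Share of windows (y axis, %) by the number of peaks in them (x axis), for windows of 170 kb on the left and of 1150 kb, in steps of 10 peaks, on the right, over the cluster's own chromosome (dark) and all chromosomes (light). The coloured line marks the cluster, at 16 peaks for UGT1A and 74 for UGT2B, inside the bulk of both distributions.

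Within UGT1A the peaks were unevenly spaced. The densest part ran from 234620293 to 234628739, where 5 peaks lay in a single 10 kb bin; these were 245, 322, 366, 186 and 383 bp wide. The last 2 of these were separated by only 117 bp and are the only peaks of the cluster that lay within 1 kb of each other. After it came 32.1 kb without a peak. The next 3 peaks, from 234660811 to 234674784, included the widest peak of the cluster, at 957 bp from 234664986 to 234665942. A longer stretch, 39.8 kb from 234522268 to 234562110, had none either; on chromosome 2, 5.45% of the gaps between peaks were at least that long. Of the remaining peaks, one of 367 bp from 234521901 to 234522267 lay near the lower limit, 410 and 694 bp peaks lay from 234562111 to 234562520 and from 234567370 to 234568063, and 198, 246 and 267 bp peaks began at 234592559, 234604322 and 234614659. Near the upper limit, peaks of 273 and 340 bp began at 234684494 and 234689004.

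The number of deposited rows per peak climbed step by step along UGT1A. In order of position, the 16 peaks were listed in 1, 2, 2, 4, 6, 6, 7, 7, 7, 7, 7, 9, 10, 9, 1 and 1 rows, each row of a peak having the same start and end. No value fell before the peak of 957 bp, which had 10 rows, and past 234674784 the value was back at 1. In all, 13 of the 16 peaks were listed more than once (81.2%, 95% Wilson interval 57.0 to 93.4%), against 10.7% of all peaks in the list and 8.79% of those on the rest of chromosome 2. The interval treats each peak as independent, although neighbouring peaks had similar numbers of rows. The mean was 5.38 rows per peak in UGT1A and 1.1 on the rest of chromosome 2. Peaks with 3 or more rows numbered 11 of 16, against 1.36% of the list, and peaks with 7 or more numbered 8 of 16, against 0.0156%. These were 8 of the 25 such peaks in the whole list, and only 2 others lay on chromosome 2.

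**Figure D3:**
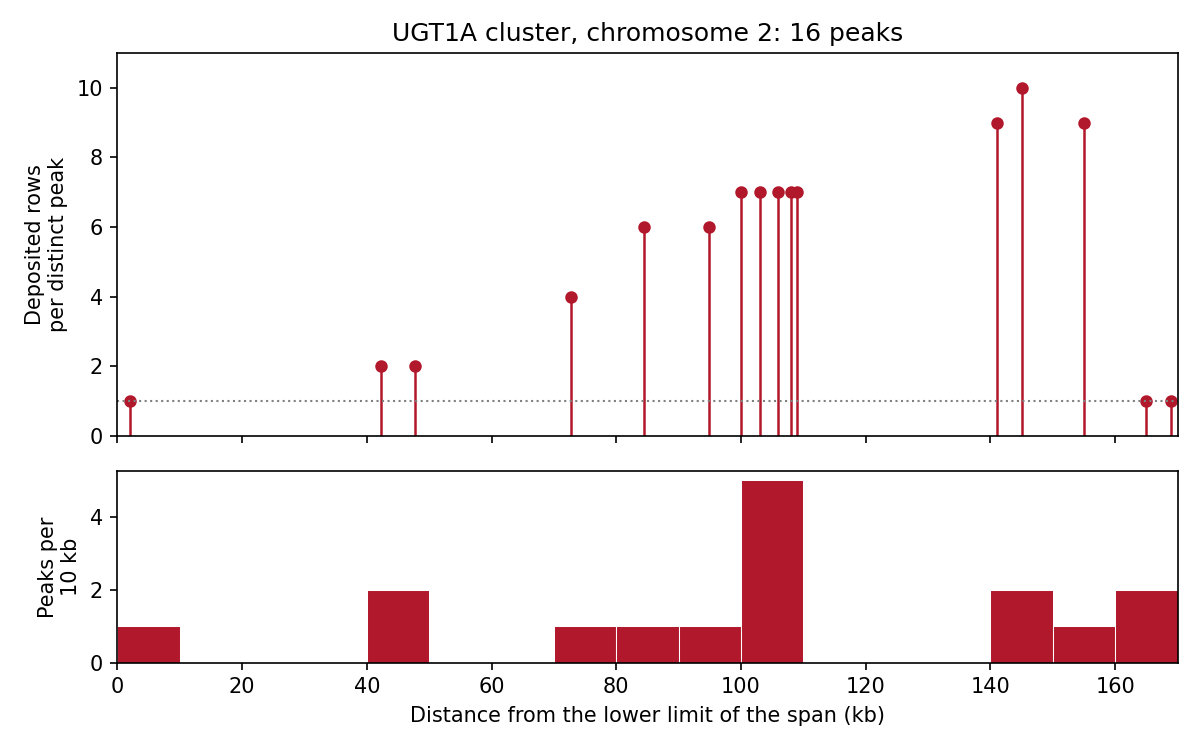
Deposited rows per distinct peak (upper panel, y axis; the dotted line is at 1) and peaks per 10 kb (lower panel, y axis) against distance in kb from the lower limit of the UGT1A span; each point is 1 peak. Rows climb in steps to 10 at the widest peak and drop to 1 for the last 2 peaks, while peaks per 10 kb reach 5 in the middle of the span.

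In unbroken runs the UGT1A peaks also ranked high in the list. The 11 consecutive peaks from 234592559 to 234674784 with 3 or more rows formed its second longest such run; the longest, of 16 peaks, lay on the same chromosome from 144070778 to 144241577. At 7 or more rows the run of 8 UGT1A peaks was the longest, ahead of runs of 6 and 3 peaks, both on chromosome 5. The highest number of rows for a single peak in the list was 20, above the 10 reached in UGT1A. The GRCh38.p14 gene table was used for names, order and overlap of genes only. In it, the 9 coding UGT1A genes overlap each other and share their end. They begin in the order UGT1A8, UGT1A10, UGT1A9, UGT1A7, UGT1A6, UGT1A5, UGT1A4, UGT1A3 and UGT1A1. The deepest overlap in that table is 9 entries without the entry for the locus as a whole and 10 with it. The highest number of rows was 10, at 1 peak, so the numbers are equal only with that entry. The meaning of a row is not given in the sources used here. This match of numbers was not tested. The extra rows carry no further peak: counted once each, they add nothing to the density of UGT1A.

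In UGT2B repeated rows were about as rare as on the rest of chromosome 4. Of its 74 peaks, 69 had 1 row and 5 were listed more than once (6.76%, 2.92 to 14.9%), against 7.3% on the rest of chromosome 4, and the mean was 1.08 rows in both. The single peak with 3 rows lay from 69890865 to 69891117, and its neighbour from 69891928 to 69892175 had 2. The other 3 repeated peaks, with 2 rows each, followed each other from 70044020 to 70048004. The 10 coding UGT2 genes in the gene table run in the order UGT2B17, UGT2B15, UGT2B10, UGT2A3, UGT2B7, UGT2B11, UGT2B28, UGT2B4, UGT2A1 and UGT2A2, and at most 2 of them overlap. Over all entries of the table the deepest overlap in UGT2B is 3, and the highest number of rows was 3. These are maxima, and their positions were not compared. The coding genes that overlap, UGT2A1 and UGT2A2, come last in the order. The peak with 3 rows lay 491 kb from the lower limit of the span, and all peaks past 70048004 had 1 row. As for UGT1A, this match of numbers was not tested.

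**Figure D4:**
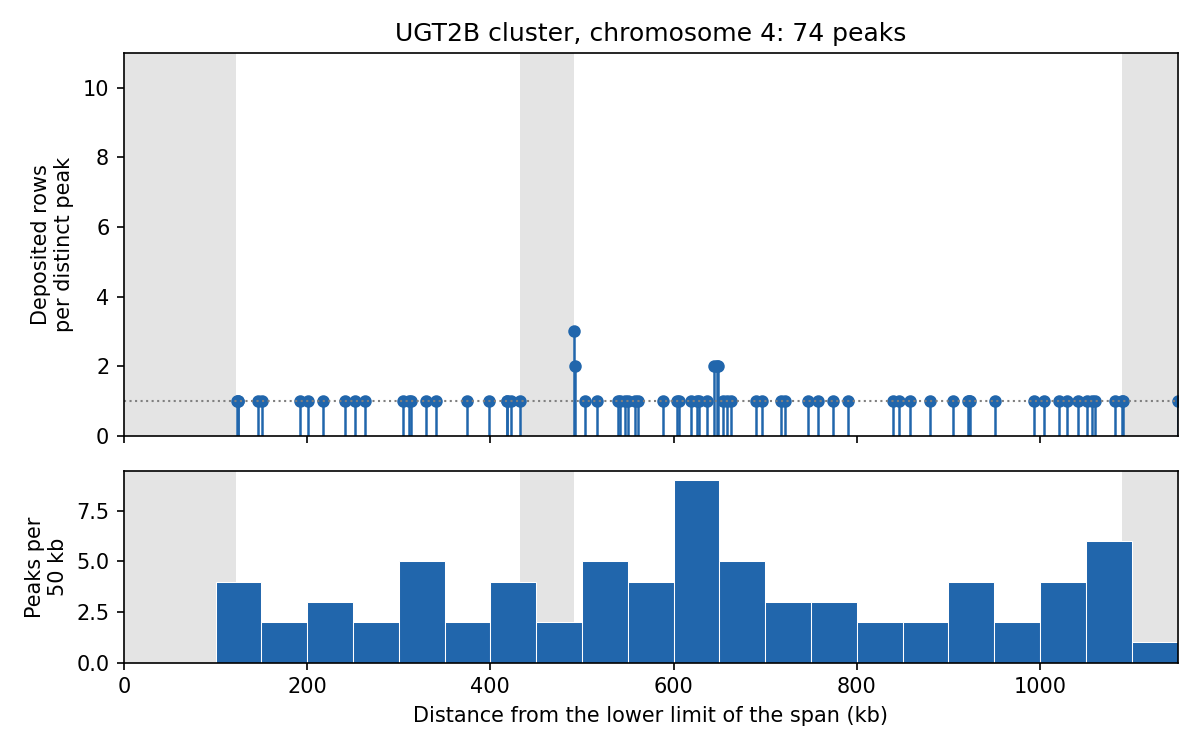
Deposited rows per distinct peak (upper panel, y axis; the dotted line is at 1) and peaks per 50 kb (lower panel, y axis) against distance in kb from the lower limit of the UGT2B span, with the y scale of rows as for UGT1A; each point is 1 peak and grey marks the 3 longest stretches without a peak. Rows stay at 1 except at 5 peaks, the lowest 123 kb hold no peak, and the fullest bin holds 9.

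The low end of UGT2B was empty. From 69362822 to 69522727 no peak was called over 160 kb, of which 123 kb lay in the span, and only 17 of the 10101 gaps between peaks on chromosome 4 (0.168%) were at least as long. In the gene table UGT2B17 is the first coding gene of the cluster at this end. Whether UGT2B17 lies in the empty stretch on hg19, whether reads can be placed there and how many copies HepG2 carries were not analysed here. The stretch ended in 3 peaks of 403, 386 and 356 bp from 69522728 to 69524568, with 360 and 336 bp between them. The next longest stretches without a peak, 59.9 kb from 70489908 to 70549758 and 58.2 kb from 69832697 to 69890864, were matched or exceeded by 4.81% and 5.26% of the gaps on chromosome 4.

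Past the empty low end the UGT2B peaks were spread over the cluster up to 70489907. After that came the 59.9 kb without a peak that reached 70549758. Of the 23 bins of 50 kb in UGT2B, 2 were empty, both at the low end, and the median was 3 peaks. The last bin held only the peak from 70549759 to 70550101, which crosses the upper limit of the span. The fullest bin, from 70000001 to 70050000, held 9 peaks and included the 3 consecutive peaks with 2 rows. Peaks within 1 kb of each other formed 6 groups with 13 peaks in all. The median gap between neighbours in the span was 10.4 kb, against 11.3 kb on chromosome 4, while in UGT1A it was 5.37 kb, against 7.99 kb on chromosome 2. Another peak within 5 kb was found for 68.8% of the UGT1A peaks (44.4 to 85.8%), against 59.3% on the rest of chromosome 2, and for 48.6% of the UGT2B peaks (37.6 to 59.8%), against 48.2% on the rest of chromosome 4. Neither interval excludes the value of the chromosome.

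Peak widths in both clusters were close to those of their chromosomes. The UGT1A peaks had a median of 326 bp and ran from 186 to 957 bp, against a median of 322 bp on the rest of chromosome 2. The UGT2B peaks had a median of 319 bp and ran from 151 to 791 bp, against 308 bp on the rest of chromosome 4. Peaks of 420 bp or wider numbered 2 of 16 in UGT1A (12.5%, 3.5 to 36.0%), against 20.7% on the rest of chromosome 2, and 11 of 74 in UGT2B (14.9%, 8.51 to 24.7%), against 14.0% on the rest of chromosome 4. No peak of 1 kb or wider lay in either span. The widest UGT2B peaks were 791 bp from 70090039 to 70090829, 779 bp from 69600394 to 69601172, 641 bp from 69817570 to 69818210, 633 bp from 69773226 to 69773858 and 543 bp from 70057625 to 70058167. All of them had 1 row, whereas the widest UGT1A peak had 10.

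**Figure D5:**
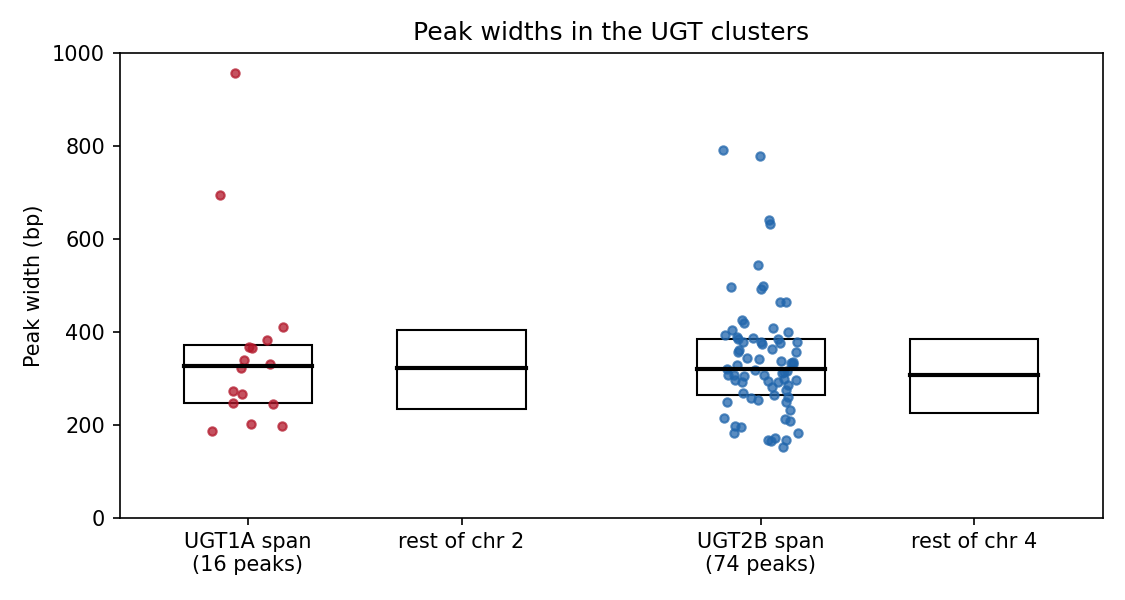
Peak width in bp (y axis) of each peak in the UGT1A and UGT2B spans (points), with the median (thick line) and quartiles (box) there and on the rest of the same chromosome (boxes without points). The medians of 326 bp in UGT1A and 319 bp in UGT2B lie close to the 322 and 308 bp of their chromosomes, and no peak reaches 1000 bp.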

How the data were processed

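Chromatin from HepG2 cells was immunoprecipitated for H3K4me1 and sequenced, with 1 ChIP and 1 input library per condition. Per the file header, the authors trimmed reads, removed duplicates and called peaks with MACS (read and fragment length 128 bp, p-value cutoff 1e-05, enrichment factor 32). The submitters' processing notes name BWA and hg19, without versions. The deposited columns are chromosome, start and end, so peaks carry no score and the depth of the libraries is unknown. Regions higher in the control library were not analysed here.

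The 180505 rows were reduced to 160601 distinct peaks, none overlapping another. Chromosome length was taken from the first to the last peak, without peak-free gaps over 1 Mb. Poisson, conditional binomial and Wilson intervals are at 95%, were computed with scipy 1.17.1 and take peaks as independent. Counting of spans was checked on simulated data. For the alternative settings, median width had an interval taken from the ordered widths, and rows per peak a Poisson interval on the summed rows. The latter takes the rows of a peak as independent events. Windows of a cluster's length were tiled so that the cluster was 1 of them. Promoters were aligned globally, with end gaps free, with Biopython 1.88. The genes, the spans and the lists were chosen with earlier results of these data known. All peaks of UGT1A are named, and for UGT2B the 5 widest, those with 3 or more rows and the ends of the 3 longest stretches without a peak; the other peaks given by position were chosen after their values were seen.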

Additional observations from a re-analysis of the deposited data

How the results depend on the processing

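Of 43 values under alternative settings, 37 stayed inside the 95% interval of the value reported and 6 did not. All alternative density ratios stayed above 1, as did the reported ratios, whose intervals include 1. Counting every row gave 506 rows per Mb in UGT1A and a ratio of 7.27 between UGT1A and UGT2B, against 1.46 by distinct peaks. Peaks at or above the median width numbered 52.9 per Mb in UGT1A and 33.0 in UGT2B, fewer by construction, and covered sequence came to 34.0 and 21.7 kb per Mb, which is another unit. Widening the spans by 50 kb left UGT1A at 1.02 times the rest of chromosome 2 and UGT2B at 1.16 times that of chromosome 4. This widening also took the mean of UGT1A from 5.38 to 4.33 rows per peak, close to the lower limit of its interval (4.3 to 6.64). Without its empty low end, an alternative chosen after seeing the data, UGT2B reached 72.0 peaks per Mb and 1.34 times chromosome 4 (1.05 to 1.69); leaving out an empty stretch raises the value by construction. A choice by peak score was not run, since the list holds none. Leaving out a library would leave no comparison. No paired analysis was possible because there is a single ChIP library on either side. As depth is unknown, empty stretches cannot be read as a lack of change.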
